A study of Mus musculus with 36 samples.

Results

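Tmsb4x (thymosin beta 4), Tmsb10 (thymosin beta 10) and Ptma (prothymosin alpha) were described in the cells of the mouse left ventricle after sham surgery, ischemia-reperfusion and myocardial infarction. The 3 genes were taken by symbol, out of 20720 nuclear genes in the tables. All 3 were measured in cells of every class and not in cardiomyocytes alone.

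Beta-thymosins are very small proteins that bind monomeric (G-) actin and hold it in reserve, so that the pool of actin available to growing filaments can be set apart from the total. Thymosin beta 4 is also known outside cells, where it has been studied in cell migration, vessel growth and wound repair, and as a candidate cardioprotective peptide. Prothymosin alpha, despite its name, is not related to the beta-thymosins in sequence: it is a highly acidic, disordered and mainly nuclear protein that binds linker histone H1, interacts with Keap1, the repressor of the antioxidant factor Nrf2, and restrains formation of the apoptosome. Prothymosin alpha is known to be abundant in growing and dividing cells.

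The cells came from the left ventricle, labelled as the infarcted region, of male C57BL/6 mice aged 8 weeks. Sham day 1 had 4 plates and sham day 14 had 8 tables. In ischemia-reperfusion (IR), the left anterior descending coronary was tied off for 1 hour and then released, with 9 plates at day 1, 7 at day 3 and 3 at day 14. In myocardial infarction (MI) the same artery stayed tied, with 5 plates at day 3. A sham group of day 3 was not analysed here, so both day 3 groups were set against the sham plates of day 1 and day 14 together, or against day 1 alone in a class where day 14 gave fewer than 2 plates. The labels do not tie a plate to a mouse, and some plates share a mouse, so p-values measure the spread between plates and may be too small. The MI plates carry a protocol label of their own, and MI cannot be told apart from a library batch.

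Tmsb4x and Tmsb10 are close relatives, and Ptma is not. Their coding sequences are shown so that the likeness of the beta-thymosins can be read beside their separate values, since reads of similar genes could be assigned to the wrong one. Both come from GENCODE transcripts of the GRCm38 build, printed on the coding strand with the bases that differ between them in capitals.
Tmsb4x: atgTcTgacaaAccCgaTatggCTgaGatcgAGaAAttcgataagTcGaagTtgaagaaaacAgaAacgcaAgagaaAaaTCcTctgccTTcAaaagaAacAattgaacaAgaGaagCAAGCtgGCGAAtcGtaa
Tmsb10: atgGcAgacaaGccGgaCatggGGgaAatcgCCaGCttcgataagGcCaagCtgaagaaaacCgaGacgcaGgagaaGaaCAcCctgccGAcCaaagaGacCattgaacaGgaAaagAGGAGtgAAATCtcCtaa
The coding sequences are 135 bases each, stop included, and 95 of the 135 positions hold the same base (70.4%), with 40 differing and a longest identical run of 10 bases. The last 300 bases of the transcripts, where a library primed from the poly(A) tail is read, shared no run longer than 8 bases. Tmsb4x (ENSMUSG00000049775) lies at chrX:167207093-167209315 on the minus strand in 3 exons. Tmsb10 (ENSMUSG00000079523) lies at chr6:72957347-72958748 on the minus strand, also in 3 exons. Ptma (ENSMUSG00000026238) lies at chr1:86526726-86530712 on the plus strand in 5 exons and codes for 111 residues, against 44 for each beta-thymosin. Annotated transcripts were also searched for runs of 50 bases shared with the last 300 bases of each member. In that search 1 other gene, Gm9844, shared such a run with Tmsb10, and Gm9844 is not in the count tables. The rest of each transcript was not searched. How the authors' mapping divided reads among unannotated copies is not given in the sources used here.

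Each plate holds 384 wells with 1 sorted cell each, and transcripts were counted by unique molecular identifiers (UMIs). Of 13824 wells, 3146 held at least 1000 nuclear UMIs. The total per plate ranged from 176614 to 5551870 UMIs, and the 5 MI plates (3713893 to 5289230) were deeper than the sham day 1 plates (1807508 to 3082010). Replicates 2 and 7 of sham day 14 held the same wells and were counted as 1 plate, and 40 other wells matched a well of another plate and were left out, 19 of them above 1000 UMIs. The wells were clustered without the 3 genes, and classes were named from fixed marker lists, each class meaning only that cells were like that cell type by RNA. Without replicate 2 of sham day 14, 3092 distinct cells remained, of which 1133 were cardiomyocyte-like, 436 endothelial-like, 293 fibroblast-like, 622 macrophage-like, 155 neutrophil-like and 15 mural-like, and 438 lay in clusters left without a name. Replicates 3 and 4 of sham day 14 stood apart from the other sham plates. Of their 23 and 20 cells, 20 and 20 were in the unnamed cluster 7, with a median of 2.54% and 6.53% of UMIs from mitochondrial genes where the other sham plates had 56.6% to 78.4%, so they gave no plate of any class and enter only the sums over whole plates. Levels are given as CPM, the UMIs of a gene scaled to 1000000 nuclear UMIs, of a class summed over its cells on a plate, for plates with at least 5 cells of the class. In a pooled sum the intervals given cover counting error only.

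In Tmsb4x, white blood cells held the highest levels and cardiomyocytes the lowest. The median over plates was 8873 CPM in macrophages, 7630 in neutrophils, 3890 in endothelial cells, 1197 in fibroblasts and 166 in cardiomyocytes. Plates that held both classes of a neighbouring pair were compared with an exact sign-flip test of log2(CPM + 10), two-sided, over 12 such pairs for the 3 genes. Macrophages were above neutrophils on 9 of 14 plates, which did not pass (exact test, adjusted p = 0.212). Neutrophils were above endothelial cells on 12 of 13 plates (exact test, adjusted p = 0.00117), endothelial cells above fibroblasts on 19 of 19 (exact test, adjusted p = 4.58e-05), and fibroblasts above cardiomyocytes on 13 of 13 (exact test, adjusted p = 0.000732). The 3 lower steps of the order were thus larger than the spread between plates.

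Tmsb10 was ordered otherwise. Its medians were 956 CPM in macrophages, 793 in fibroblasts, 565 in endothelial cells, 140 in neutrophils and 27.0 in cardiomyocytes. Neither step among macrophages, fibroblasts and endothelial cells passed, with macrophages above fibroblasts on only 5 of 17 plates (exact test, adjusted p = 0.256) and fibroblasts above endothelial cells on 11 of 19 (adjusted p = 0.132, exact test). With at least 10 cells of a class per plate, fibroblasts passed as higher than macrophages (macrophages over fibroblasts log2 -0.56, exact test, adjusted p = 0.0312). Endothelial cells were above neutrophils on 13 of 13 plates (exact test, adjusted p = 0.000732). Neutrophils, among the highest classes in Tmsb4x, were therefore among the lowest in Tmsb10, and on the 5 plates with both classes they were above cardiomyocytes on 1 (exact test, adjusted p = 0.5625). With 5 plates the smallest p an exact test can give is 0.0625, so this step could not pass. The medians of these classes also rest on different plates, since neutrophil plates came from IR day 1 and MI day 3 alone.

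Ptma was at similar levels in endothelial cells (median 1463 CPM), fibroblasts (1435) and macrophages (1376), and lower in neutrophils (444) and cardiomyocytes (83.0). Neither step among the top classes passed (14 of 19 plates, exact test, adjusted p = 0.0879, and 11 of 17 plates, adjusted p = 0.483), but endothelial cells passed as higher than fibroblasts with at least 10 cells per plate (log2 0.51, exact test, adjusted p = 0.0312) and in wells of at least 2000 UMIs (0.40, exact test, adjusted p = 0.0375). Macrophages were above neutrophils on 14 of 14 plates (exact test, adjusted p = 0.000732). The step from neutrophils to cardiomyocytes rested on 5 plates, all in the same direction, where the smallest p an exact test can give is 0.0625. With at least 10 cells of a class per plate, fewer plates remained and, beside the 2 steps that came to pass, those from neutrophils to endothelial cells and from fibroblasts to cardiomyocytes in Tmsb4x, from endothelial cells to neutrophils in Tmsb10 and from macrophages to neutrophils in Ptma kept their direction but no longer passed. Macrophages were above cardiomyocytes on all 14 plates that held both, in each of the 3 genes.

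**Figure D1:**
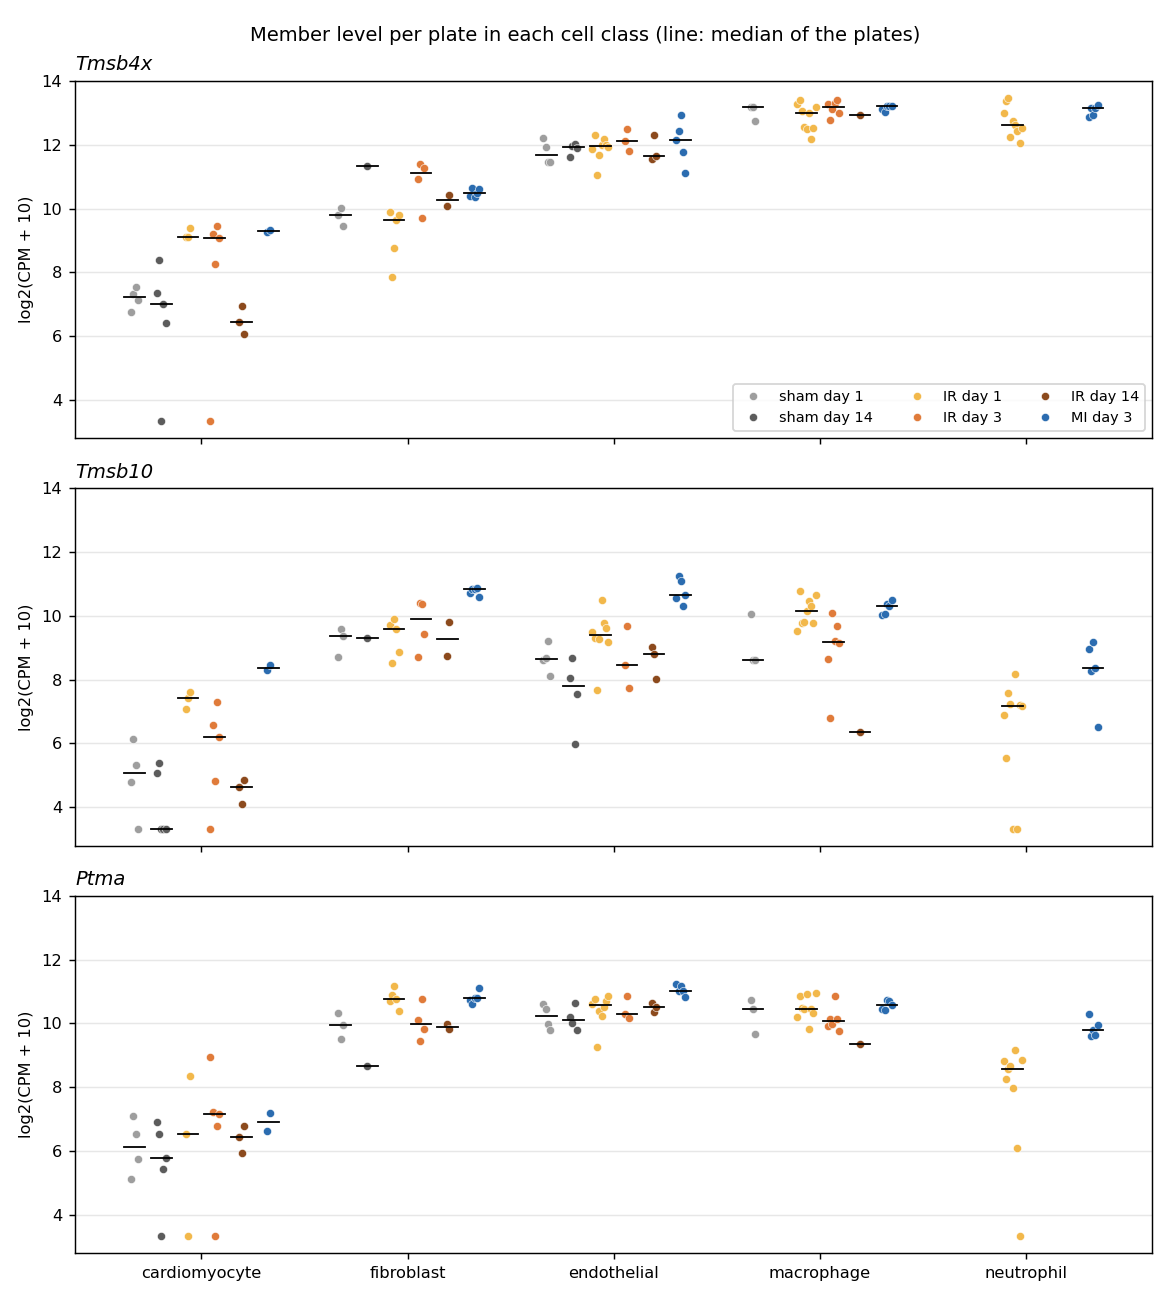
Level of Tmsb4x, Tmsb10 and Ptma as log2(CPM + 10) on the vertical axis, in each cell class (horizontal axis) and group (colour). Each point is 1 plate with at least 5 cells of the class and each black line is the median of the plates. Tmsb4x ran from a median of 166 CPM in cardiomyocytes to 8873 in macrophages, and Tmsb10 lay higher on the MI plates than on the sham plates in endothelial cells, fibroblasts and cardiomyocytes.

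The share of cells with at least 1 UMI depends on depth, so it was also computed at 1000 UMIs per cell. Tmsb4x was seen in 99.3% of macrophages, 98.0% of neutrophils, 87.4% of endothelial cells, 62.3% of fibroblasts and 21.3% of cardiomyocytes at that depth. Without thinning, the shares were 99.7%, 100%, 94.7%, 94.9% and 39.0%. For Tmsb10 the shares at 1000 UMIs were 60.9% of fibroblasts, 52.3% of macrophages, 34.0% of endothelial cells, 16.6% of neutrophils and 4.5% of cardiomyocytes. Ptma was seen in 67.4% of fibroblasts, 64.9% of macrophages, 61.7% of endothelial cells, 35.0% of neutrophils and 9.60% of cardiomyocytes. Within cardiomyocytes, the share with Tmsb4x at 1000 UMIs was 12.4% at sham day 1 and 12.5% at sham day 14, against 48.2% at IR day 1 and 43.4% at IR day 3. The median depths of the cells behind those 4 shares were 2268, 1986, 1952 and 2480 UMIs. Free RNA from other cells could add UMIs to any of these wells, and its part in the shares was not tested.

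Over all cells of a plate, all 3 genes were higher early after injury, and none was called at IR day 14 against sham day 14 with every plate in. Fewer cells of a type and less RNA per cell cannot be told apart in such a sum. Tmsb4x was 3912 ± 1064 CPM (SD, n = 9 plates) at IR day 1 and 2004 ± 620 (n = 4) at sham day 1 (exact permutation test, adjusted p = 0.0114 over 15 tests). It was 5115 ± 1363 CPM (n = 6) at IR day 3 and 5245 ± 351 (n = 5) at MI day 3, both above the 1503 ± 809 CPM (n = 11) of all sham plates (exact permutation test, adjusted p = 0.00172 for each). The difference between the day 3 groups did not pass in Tmsb4x (exact permutation test, adjusted p = 0.728, n = 5 and 6).

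Tmsb10 rose from 256 ± 115 CPM at sham day 1 to 735 ± 160 at IR day 1 (exact permutation test, adjusted p = 0.00599, n = 4 and 9). At MI day 3 it was 1438 ± 86.4 CPM, above IR day 3 at 480 ± 192 (exact permutation test, adjusted p = 0.00722, n = 5 and 6), and both were above sham at 160 ± 124 (exact permutation test, adjusted p = 0.00172 and 0.00485, n = 11 sham plates). Ptma had the same order of groups, with 1357 ± 196 CPM at IR day 1, 824 ± 200 at IR day 3 and 1654 ± 134 at MI day 3, against 619 ± 140 at sham day 1 and 452 ± 261 over all sham plates (exact permutation test, adjusted p = 0.00599, 0.0107 and 0.00172). Its MI plates lay above all IR day 3 plates (1444 to 1793 against 679.8 to 1101 CPM, exact permutation test, adjusted p = 0.00722, n = 5 and 6). At IR day 14 no member passed against sham day 14 (exact permutation test, adjusted p = 0.933 for Tmsb4x, 0.542 for Tmsb10 and 0.615 for Ptma, n = 3 and 7), and the plates overlapped in all 3 genes. This result turned on the 2 sham day 14 plates that stood apart, replicates 3 and 4, which held 424 and 0 CPM of Tmsb4x, 130 and 13.8 of Tmsb10 and 141 and 68.8 of Ptma. Without them, in a comparison chosen after seeing the data, Tmsb4x at IR day 14 (990 ± 127 CPM, n = 3) lay below all 5 other sham day 14 plates (1619 ± 474 CPM, log2 -0.66, exact permutation test, adjusted p = 0.0446), where it was at log2 0.65 with every plate and -0.35 without replicate 4, and Ptma was at log2 -0.029 (adjusted p = 0.964). The sham mean of Tmsb4x was then 1790 ± 545 CPM (n = 9), and each of the 6 day 3 differences from sham kept its direction and passed, with Tmsb4x at log2 1.52 at IR day 3 and 1.60 at MI day 3 in place of 2.38 and 2.46.

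The source of these UMIs changed with the groups. Macrophages gave 36.1% of the Tmsb4x UMIs at sham day 1 from 4.86% of the cells, 57.1% at IR day 1, 87.1% at IR day 3 from 32.2% of the cells, 77.8% at MI day 3 and 15.4% at IR day 14. Endothelial cells gave 52.0% of them at sham day 1, 4.41% at IR day 3 and 58.4% at IR day 14. Cardiomyocytes were 54.6% of the cells at sham day 1 and gave 3.08% of the Tmsb4x UMIs, and at IR day 3 they were 47.9% of the cells and gave 3.06%. For Tmsb10 the macrophage share was 20.1% at sham day 1, 72.9% at IR day 3 and 37.5% at MI day 3, where fibroblasts gave 49.7%. For Ptma at MI day 3, fibroblasts (44.1%) and macrophages (41.4%) gave similar shares. Of the nuclear UMIs of all genes, macrophages held 8.24% at sham day 1, 53.25% at IR day 3 and 45.3% at MI day 3. Fibroblasts held 40.8% of them at MI day 3, and cardiomyocytes 44.9% at sham day 1 and 29.6% at IR day 3. The Tmsb10 and Ptma shares of fibroblasts and macrophages at MI day 3 lay near these. Most of the whole-plate level of each gene after injury thus came from cells other than cardiomyocytes.

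**Figure D2:**
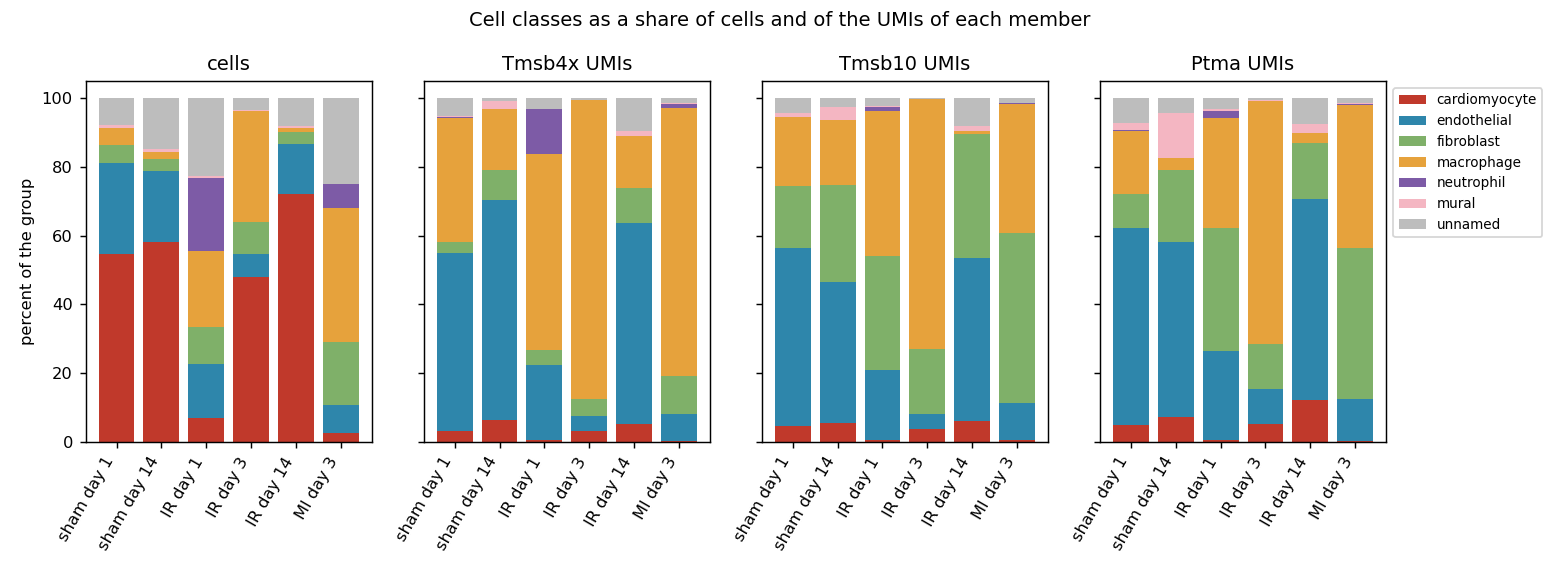
Percent of the cells (left panel) and of each gene's UMIs (other panels) found in each cell class, over all cells of each group. Each stacked bar adds to 100%. Macrophages held 87.1% of the Tmsb4x UMIs at IR day 3, and fibroblasts held 49.7% of the Tmsb10 UMIs at MI day 3. Of the nuclear UMIs of all genes, these classes held 53.25% and 40.8% in the same groups.

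Within classes, groups were compared by edgeR's quasi-likelihood test on the counts summed per plate, with adjustment over all genes tested in the class. Over 26 comparisons in 5 classes, 77 tests of the 3 genes gave 15 calls that were higher, 3 that were lower and 59 that did not pass. Over the same comparisons 10.8% of the tests of all genes gave a call, from 0 to 35.4% in single comparisons. Tmsb10 had 7 calls higher and 2 lower, Tmsb4x 4 and 1, and Ptma 4 and 0. Several comparisons share their sham plates and are not independent of each other.

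In cardiomyocytes, Tmsb4x and Tmsb10 were higher at IR day 1, IR day 3 and MI day 3 than in sham, and Ptma was not called in any comparison. At IR day 1, Tmsb4x was 539, 543 and 662 CPM on the 3 plates, and on the 4 sham day 1 plates it was 99.2, 149, 178 and 130 CPM. Every IR day 1 plate lay above every sham day 1 plate. The log2 fold change was 1.51 ± 0.48 (SE, adjusted p = 0.0253), where 11.6% of all genes tested were called. Tmsb10 was 124, 163 and 185 CPM on the IR day 1 plates and 17.7, 60.6, 30.2 and 0 CPM on the sham day 1 plates, again without overlap (log2 1.95 ± 0.68, adjusted p = 0.0453). The plate at 0 had 138994 UMIs, so that 3 counts would be 21.6 CPM.

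These day 1 calls rested on 23 cells and were close to the threshold. The Tmsb4x call was lost without IR day 1 replicate 3 (log2 1.23, adjusted p = 0.164) or sham day 1 replicate 1 (1.40, adjusted p = 0.0607). It was also lost with no low count filter (1.04, 0.342), in wells of at least 2000 UMIs (1.67, 0.125) and with at least 10 cells a plate (1.58, 0.0697), and so was the Tmsb10 call (1.47, 0.288, then 1.87, 0.367, and 2.05, 0.234). The Tmsb10 call was lost without IR day 1 replicate 1 (2.07, adjusted p = 0.0775), replicate 2 (2.06, 0.0819) or replicate 3 (1.60, 0.258), and without sham day 1 replicate 1 (1.80, 0.0868), replicate 3 (2.01, 0.0611) or replicate 4 (1.64, 0.0965). Scaling also mattered in this comparison: the median log2 value over all genes tested was -0.56 under TMM and 0.09 under RLE scaling, the percent of calls that were higher was 31.7 and 71.0, and with RLE Tmsb4x was at 2.15 and Tmsb10 at 2.60.

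At IR day 3, Tmsb4x was 577, 296, 692 and 529 CPM on 4 plates and 0 on the fifth, replicate 3, which had 5 cells and 6209 UMIs, where 3 counts would be 483 CPM. On the 5 sham day 14 plates it was 154, 328, 0, 118 and 75.9 CPM. Apart from replicate 3, 3 of the IR day 3 plates lay above all sham plates of either day, and 1 lay below the highest of them. The fold change against all sham plates was log2 1.44 ± 0.31 (adjusted p = 0.000405), with 6.2% of all genes called. Tmsb10 was 0, 85.5, 18.5, 148 and 64.2 CPM on the same IR day 3 plates and 23.8, 31.5, 0, 0 and 0 CPM on the sham day 14 plates (log2 1.59 ± 0.43, adjusted p = 0.00836), and this call was lost without IR day 3 replicate 4 (1.41, adjusted p = 0.117) and with sham day 1 alone as the control (1.18, adjusted p = 0.137). The groups overlapped in Tmsb10. Of all calls in this comparison 68.3% were higher, and 78.9% with RLE scaling.

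The MI day 3 group had 2 plates with enough cardiomyocytes, of 6 cells each. Tmsb4x was 608 and 634 CPM there, above all sham plates and within the range of IR day 3 (log2 1.47 ± 0.43 against sham, adjusted p = 0.00456, with 34.1% of all genes called), a call lost with no low count filter (1.23, adjusted p = 0.0944). Tmsb10 was 304 and 340 CPM, above every sham plate and the 4 IR day 3 plates other than replicate 3, whose 0 counts allow up to 483 CPM. Its fold change was log2 3.26 ± 0.51 against sham (adjusted p = 1.27e-07) and 1.67 ± 0.50 against IR day 3 (adjusted p = 0.00989, with 21.6% of all genes called), and the latter was lost without MI replicate 2 (1.82, adjusted p = 0.0981) and with no low count filter (1.39, adjusted p = 0.128). Tmsb4x differed by log2 0.03 between MI and IR day 3. Ptma was 88.7 and 136 CPM on the MI plates and 24.8, 127, 83.1 and 43.2 CPM on the sham day 1 plates. Its fold change at MI day 3 against sham was log2 0.015 (95% interval -1.22 to 1.25), an interval that allows changes in either direction. At IR day 1 against sham day 1, Ptma was at log2 0.73 (95% interval -0.51 to 1.975). At IR day 3 against sham it was at 0.52 (95% interval -0.19 to 1.23). Neither passed, both intervals reach below and above no change, and the IR day 1 value was -1.25 without IR day 1 replicate 3.

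By IR day 14, no cardiomyocyte plate lay above the highest sham plate in either beta-thymosin. Tmsb4x was 76.7, 114 and 57.7 CPM on the 3 plates and Tmsb10 14.8, 7.36 and 19.2 CPM. The sham plate at 0 CPM of Tmsb4x, replicate 6 of day 14, had 7 cells, where 3 counts would be 273 CPM, and the lowest of the other sham plates, at 75.9 CPM, was above 1 of the IR day 14 plates. Against IR day 3, Tmsb4x fell by 2.30 ± 0.43 on the log2 scale (adjusted p = 6.71e-05, with 3.72% of all genes called) and Tmsb10 fell by 2.15 ± 0.51 (adjusted p = 0.00252). Against sham day 14, Tmsb4x was at log2 -0.89 and did not pass (adjusted p = 0.9998), in a comparison with 0.21% of all genes called. Against IR day 1, no member passed at IR day 3 (log2 -0.04, -0.77 and -0.22), where 4.49% of all genes were called. In these last comparisons the percent of calls that were higher also moved with scaling, from 31.5 to 17.4 for IR day 14 against IR day 3 and from 68.8 to 25.9 for IR day 3 against IR day 1, where the median gene stood at 0.47 under TMM and -0.08 under RLE.

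Macrophage and fibroblast markers moved with these cardiomyocyte groups, and neutrophil markers with IR day 1. Endothelial markers were lower at MI day 3 than in both sham groups, and lower at IR day 1 than at sham day 1. The summed level of 9 macrophage markers in cardiomyocytes was 45.3 to 287 CPM at sham day 1 (median 81.7), 109 to 874 at IR day 1 (332), 222 to 1351 at IR day 3 (907), 29.5 to 72.3 at IR day 14 (55.5) and 165 to 453 at MI day 3 (309). The sum of 8 fibroblast markers in cardiomyocytes had a median of 237 CPM at sham day 1, 182 at sham day 14, 874 at IR day 1 (373 to 3095), 2225 at IR day 3 (610 to 4518), 1290 at MI day 3 (633 to 1946) and 572 at IR day 14. Of these, Lum, Tcf21 and Dpt were at 0 at IR day 1 and MI day 3, and Tcf21 was at 0 in both sham groups and at IR day 14. The sum of 8 neutrophil markers had a median of 224 CPM at sham day 1, 871 at IR day 1 and 86.9 to 145 in the other groups. The sum of 10 endothelial markers was 1806 to 2954 CPM at sham day 1 and 729 to 2289 at sham day 14. It was 581 to 1244 CPM at IR day 1, 322 to 2060 at IR day 3, 1709 to 2126 at IR day 14 and 279 to 339.5 at MI day 3. As a percent of the macrophages' own median sum, the cardiomyocyte median was 0.622% at sham day 1, 4.30% at IR day 1, 5.48% at IR day 3 and 3.11% at MI day 3. The same percent for Tmsb4x was 1.49%, 6.61%, 5.65% and 6.57%, and for Tmsb10 6.21%, 14.3%, 11.2% and 25.4%. For Ptma it was 4.53%, 5.98%, 12.4% and 7.42%. With 31 of 1133 cardiomyocytes left out, those with over 1% of their UMIs in markers of other classes, Tmsb4x stood at log2 1.49 at IR day 1, 1.43 at IR day 3 and 1.31 at MI day 3 (adjusted p = 0.018, 0.000259 and 0.00822), and Tmsb10 at 1.98, 1.68 and 3.13. The part of RNA from macrophages, fibroblasts, neutrophils or endothelial cells in what remains was not tested. The cells of MI also differed in quality, with a median of 5.23% of UMIs from mitochondrial genes and 8820 nuclear UMIs per cell in 19 cells, where the medians of the other groups were 73.0% to 81.2% and 1952 to 2480 UMIs, and the part of that difference was not tested.

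Different clusters held most cardiomyocytes of the groups. Cluster 3, led by the stress genes Sprr1a, Nppa and Nmrk2, held 26 of 34 cells at IR day 1, 165 of 291 at IR day 3, 19 of 19 at MI day 3, 27 of 343 at IR day 14 and 5 of 236 at sham day 1. Clusters 0, led by Myh14 and Myh6, and 1, led by Fbp2, held 126 and 70 of the 236 sham day 1 cells. Pooled over cells, Tmsb4x was 601 CPM in cluster 3 (exact Poisson 95% interval 555 to 651) and 170 and 171 CPM in clusters 0 and 1. In the IR day 3 cells of those 2 clusters it was 455 CPM (327 to 617) and 353 (301 to 410), and in their sham day 1 cells 132 (91.9 to 184) and 104 (73.2 to 142). In their sham day 14 cells it was 134 CPM (91.3 to 191) and 198 (149 to 257). Within cluster 3 itself it was 546 CPM (404 to 721) at IR day 1, 748 (677 to 825) at IR day 3, 666 (565 to 780) at MI day 3 and 65.0 (29.7 to 123) at IR day 14. The IR day 14 value rests on 9 UMIs in 27 cells, and no test over plates was run within a cluster. Tmsb10 in cluster 3 was 178, 90.3 and 400 CPM (323 to 491) at IR day 1, IR day 3 and MI day 3, and 14.5 CPM at IR day 14. Ptma in cluster 3 was 223, 171, 95.7 and 93.9 CPM in the same order.

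**Figure D3:**
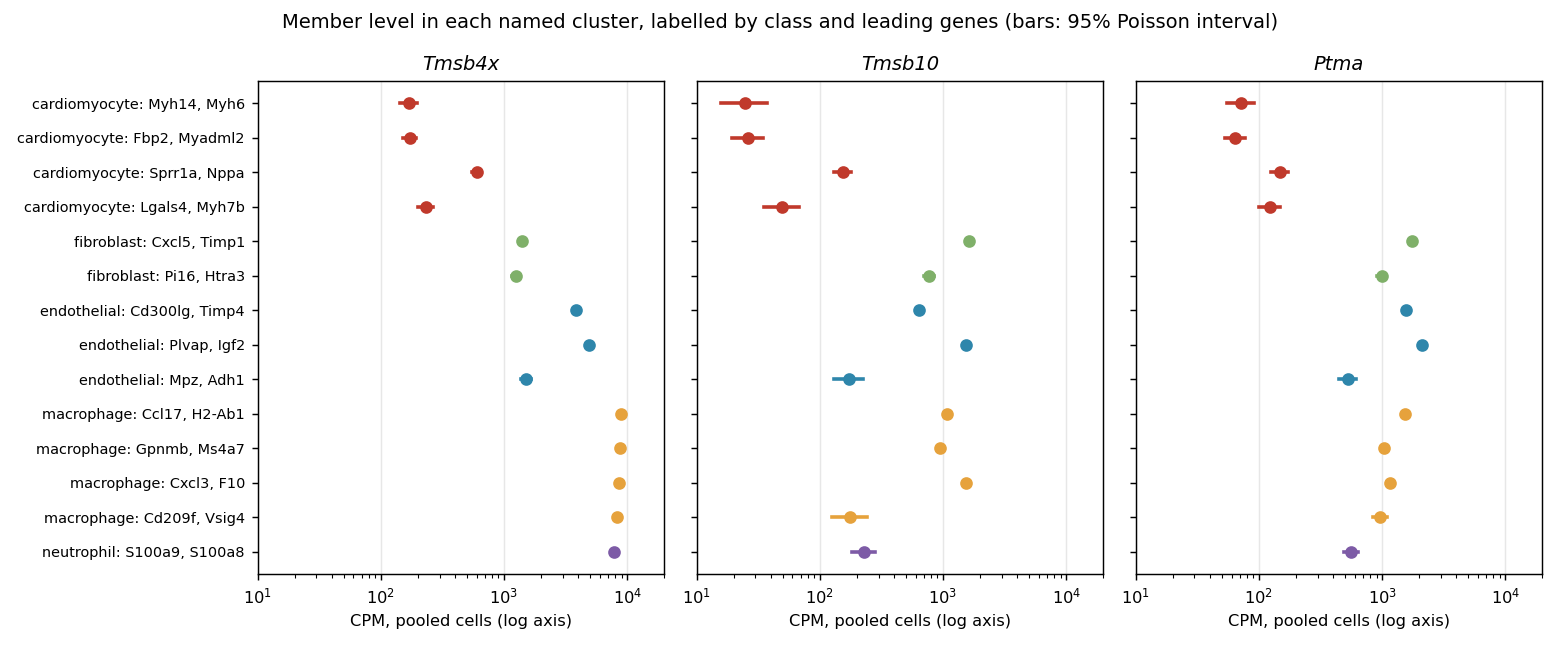
Level of each gene (CPM, log axis) in each cluster, pooled over all cells of the cluster, with exact Poisson 95% intervals as bars, which cover counting error only. Clusters with a class name are shown by class and leading genes. The Sprr1a cardiomyocytes (cluster 3) were at 601 CPM in Tmsb4x and the Myh14 cardiomyocytes (cluster 0) at 170, and the Cd209f macrophages (cluster 16) were at 176 CPM in Tmsb10 and the Cxcl3 macrophages (cluster 10) at 1541.

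In endothelial cells, Tmsb10 and Ptma were higher at MI day 3 than in sham, and Tmsb4x was not called in any comparison. Tmsb10 was 1513, 2454, 2202, 1258 and 1598 CPM on the MI plates. It was 381, 403, 580 and 265 CPM at sham day 1 and 254, 397, 52.8 and 179 CPM at sham day 14. All MI plates lay above all sham plates, with a fold change of log2 2.38 ± 0.32 (adjusted p = 6.7e-07), in a comparison where 35.4% of all genes were called, and the call held in 27 of 27 alternative settings and plate omissions. Ptma was 2410, 2073, 2311, 2067 and 1798 CPM on the MI plates, above the highest sham plate at 1583 CPM (log2 0.79 ± 0.23, adjusted p = 0.00757). Without the cells that held over 1% of other classes' markers, Ptma was at 0.60 and no longer passed (adjusted p = 0.169), nor did it against sham day 1 alone (0.67, adjusted p = 0.0683).

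Tmsb4x in endothelial cells was 4490, 5508, 7881, 3504 and 2198 CPM at MI day 3 and 2800 to 4771 CPM at sham day 1, with overlap on both sides (log2 0.30, 95% interval -0.24 to 0.83, adjusted p = 0.401). Against IR day 3, where Tmsb10 was 342, 808 and 205 CPM, MI was higher in Tmsb10 by log2 1.90 ± 0.46 (adjusted p = 0.00724, with 6.69% of all genes called). This call was lost without IR day 3 replicate 7 (1.60, adjusted p = 0.144), without cells holding other classes' markers (0.92, adjusted p = 0.892), in wells of at least 2000 UMIs (1.85, adjusted p = 0.0511) and without cluster 13, a setting chosen after seeing the data (1.59, adjusted p = 0.105). At IR day 1, Tmsb10 had a lowest plate of 193.2 CPM, a median of 669 and a highest of 1426 over 8 plates, reaching above the sham day 1 range, and did not pass (log2 0.62, adjusted p = 0.244, with 18% of all genes called). No member passed at IR day 3 against sham (1.83% of all genes called), at IR day 3 against IR day 1 (5.78%) or at IR day 14 against IR day 3 (0.0833%). At IR day 14 against sham day 14, edgeR and DESeq2 called 0 genes, 180 genes had an unadjusted edgeR p under 0.05, and Tmsb10 was at log2 0.81 (adjusted p = 0.924).

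Cardiomyocyte RNA in endothelial wells went the other way from Tmsb10. The summed level of cardiomyocyte markers was 40.6 to 275 CPM in the endothelial cells of MI day 3, 285 to 6954 at IR day 1 and 10450.2 to 33527.3 in the other groups together, and 182 of 436 endothelial cells had over 1% of UMIs in other classes' markers. The median endothelial cell had 16726 UMIs at MI and 3061 at sham day 1. Its median share of UMIs from mitochondrial genes was 10.35% at MI, 42.8% at sham day 1 and 44.9% at sham day 14. Cluster 11, led by Plvap, Igf2 and Mest, held 52 of 58 endothelial cells at MI and 41 of 78 at IR day 1, and cluster 4, with Cd300lg and Timp4, held 80 of 114 at sham day 1. Fibroblast markers summed to 818 to 3792 CPM in the endothelial cells of MI day 3 and 2281 to 7890 at IR day 3, against 427 to 1098 at sham day 1 and 264 to 1183 at sham day 14. Tmsb10 was 1549 CPM in cluster 11 and 636 in cluster 4. Within cluster 11 it was 884 CPM at IR day 1, 952 at IR day 3 and 1871 at MI day 3. Within cluster 4 it was 457 CPM at sham day 1, 273 at sham day 14, 516 at IR day 1 and 494 at IR day 3. The part of depth, of mitochondrial content, of RNA from cardiomyocytes and fibroblasts and of the mix of clusters in the Tmsb10 difference was not tested.

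In fibroblasts, Ptma was higher at IR day 1 and MI day 3, Tmsb10 at MI day 3, and Tmsb4x at IR day 3 against IR day 1. Sham values came from 3 plates of sham day 1, of 5, 7 and 9 cells, since sham day 14 had 1 plate with enough fibroblasts. Ptma was 1267, 714 and 982 CPM on those sham plates, and 1651, 1868, 2309, 1735 and 1324 CPM at IR day 1. All IR day 1 plates lay above all sham plates (log2 0.98 ± 0.30, adjusted p = 0.0202, with 19.9% of all genes called). At MI day 3 it was 1704, 1546, 1752, 1751 and 2182 CPM, also without overlap (log2 1.04 ± 0.29, adjusted p = 0.0171, with 17.1% called). The IR day 1 call was lost without sham day 1 replicate 3 (0.92, adjusted p = 0.0701) or 4 (0.95, 0.0621) and with RLE scaling (0.80, 0.0584), and the MI call without the same replicates (0.96, 0.0632 and 1.01, 0.0589) and with RLE (0.70, 0.103).

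Tmsb10 was 412, 758 and 654 CPM in sham fibroblasts and 1695, 1817, 1829, 1862 and 1521 CPM at MI day 3, where every plate was above every sham plate (log2 1.60 ± 0.43, adjusted p = 0.0126). The call was lost without sham day 1 replicate 1 (1.35, adjusted p = 0.0748) or 4 (1.58, 0.0501), and without cells holding other classes' markers (1.39, 0.0668). Against the lone sham day 14 plate it was at 1.62 (adjusted p = 0.192), in a fit that assumes this plate to vary like those of the other groups. The median gene stood at 0.28 under TMM and 0.00 under RLE in this comparison, and 58.0% and 38.8% of calls were higher. Against IR day 3, at 407, 1359, 1317 and 684 CPM, the MI plates were all higher but did not pass (log2 0.82, adjusted p = 0.172, with 8.58% called), except with no low count filter (1.02, adjusted p = 0.0441). For that comparison 37.1% of calls were higher with TMM and 26.5% with RLE.

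Tmsb4x in fibroblasts was 949, 222, 421, 790 and 887 CPM at IR day 1 and 1954, 2714, 820 and 2448 CPM at IR day 3 (log2 1.74 ± 0.38, adjusted p = 0.00229, with 22.2% called). Apart from replicate 5 at 820 CPM, the IR day 3 plates were above all IR day 1 plates. With at least 10 cells a plate it was 1.33 and did not pass (adjusted p = 0.102). Against sham, at 887, 1026 and 691 CPM, IR day 3 was at log2 1.40 and did not pass (adjusted p = 0.0931, with 3.23% called), but did without IR day 3 replicate 5 (1.69, adjusted p = 0.0335), with no low count filter (1.49, 0.0152) and in wells of at least 2000 UMIs (1.71, 0.0401). At MI day 3 against sham it was at 0.83 (adjusted p = 0.193) and passed with no low count filter (1.14, adjusted p = 0.0415). The percent of higher calls at IR day 3 against sham day 1 was 62.2 with TMM and 43.1 with RLE. Against the sham day 14 plate alone, at 2567 CPM, IR day 3 was at log2 -0.12 (adjusted p = 0.971, on the same assumption for a control of 1 plate), and macrophage markers summed to 3291 CPM in the fibroblasts of that plate. Ptma went the other way between these days, with 1099, 690, 1715 and 891 CPM at IR day 3 (log2 -0.65, adjusted p = 0.0714). Without IR day 3 replicate 5 it was -0.87 (adjusted p = 0.0194) and without IR day 1 replicate 9 it was -0.77 (adjusted p = 0.0436). It also passed with DESeq2 (-0.70, 0.00659), in wells of at least 2000 UMIs (-0.92, 0.0199) and without cells holding other classes' markers (-0.79, 0.0298). At MI against IR day 3, Ptma was at 0.70 (adjusted p = 0.0887), and at 0.92 without IR day 3 replicate 5 (adjusted p = 0.0239). It passed there in 4 other settings as well, with values from 0.60 (DESeq2, adjusted p = 0.0307) to 1.10 (at least 10 cells a plate, adjusted p = 0.00467). At IR day 14 against IR day 3 no member passed (1.07% called, 53.1% of them higher with TMM and 63.9% with RLE).

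The groups' fibroblasts also sat in different clusters. All 23 fibroblasts of sham day 1 were in cluster 14, led by Pi16, and 131 of 132 at MI and 36 of 56 at IR day 3 were in cluster 5, led by Cxcl5 and Timp1. Within cluster 5, Tmsb4x was 612 CPM at IR day 1, 2680 at IR day 3 and 1429 at MI day 3, and Ptma was 1776, 949 and 1770 CPM. Tmsb10 in cluster 5 was 873, 1130 and 1747 CPM. Macrophage markers summed to 49.7 to 2707 CPM in fibroblasts at IR day 3, 14.5 to 243 at IR day 1, 289 to 352 at MI and 0 to 72.7 at sham day 1. Mural markers summed to 1881 to 2259 CPM at MI, 111 to 2224 at IR day 1, 570 to 2535 at IR day 3 and 285 to 743.5 at sham day 1. Without cells holding other classes' markers, the rise of Tmsb4x from IR day 1 to IR day 3 was log2 2.08 (adjusted p = 0.000675). The median fibroblast had 3938 UMIs at sham day 1 and 45195.5 at MI, with medians of 20.3% and 6.92% of UMIs from mitochondrial genes. The part of depth, of mitochondrial content and of mural and cardiomyocyte markers in these results was not tested.

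Macrophages had high Tmsb4x in each group with a plate of at least 5 such cells. Sham day 14 had 7 macrophages in all and no such plate. It was 9363, 9334 and 6908 CPM on the sham day 1 plates, 4636 to 10924.5 at IR day 1 (median 8217, n = 9), 6962 to 10798 at IR day 3 (median 9365, n = 6) and 8360 to 9505 on the 5 MI plates. All groups overlapped and no comparison of Tmsb4x passed. The level on the 1 plate of IR day 14 with enough macrophages was 7737 CPM.

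Tmsb10 was the only member called in macrophages, in 1 of 5 comparisons. It was 726 to 1737 CPM at IR day 1 (median 1142) and 102 to 1076 at IR day 3 (median 571.5), and fell by 0.81 ± 0.30 on the log2 scale between those days (adjusted p = 0.0425), where 26.4% of all genes were called. The plates overlapped, and the call was lost without IR day 3 replicate 1 (-0.76, adjusted p = 0.0707), 3 (-0.68, 0.0536) or 7 (-0.84, 0.0611), with at least 10 cells a plate (-0.61, 0.171) and with at least 2000 UMIs a cell (-0.50, 0.162). At sham day 1, replicate 2 was at 1052 CPM and replicates 3 and 4 at 386 and 382, so that sham lay within the range of IR day 3. Against sham, Tmsb10 did not pass at IR day 1 (log2 0.86, adjusted p = 0.279, with 2.84% of all genes called), at IR day 3 (4.29% called) or at MI day 3 (0.99, adjusted p = 0.255, with 2.34% called, of which 24.2% were higher and 13.3% with RLE), where it passed with no low count filter (1.36, adjusted p = 0.0225). The MI plates, at 1026 to 1440 CPM, were above most IR day 3 plates (log2 0.93, adjusted p = 0.0642, with 9.08% called), and passed without IR day 3 replicate 4 (1.25, adjusted p = 0.0227), with no low count filter (1.11, 0.00300), without cells holding other classes' markers (1.02, 0.0424) and with copied wells kept (0.98, 0.0498). In macrophages the fibroblast markers had a median sum of 48.4 CPM at IR day 1 and 801 at IR day 3, and the neutrophil markers 800.5 and 110, and their part in the Tmsb10 difference was not tested.

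Ptma in macrophages was 1693, 1393 and 794 CPM at sham day 1, 887.5 to 1974 at IR day 1 (median 1387), 864 to 1830 at IR day 3 (median 1059) and 1345 to 1688 at MI day 3. From IR day 1 to IR day 3 it was at log2 -0.37 and did not pass (adjusted p = 0.194), but did without IR day 1 replicate 6 (-0.56, adjusted p = 0.0393) or IR day 3 replicate 5 (-0.61, adjusted p = 0.0353). Most macrophages at MI were in cluster 2 (205 of 282), led by Ccl17 and MHC class II genes, most at IR day 3 in cluster 8 (137 of 196), led by Gpnmb, and most at IR day 1 in clusters 10 (52 of 110), led by Cxcl3, and 2 (50 of 110). Tmsb4x differed little among them, with 8979 CPM in cluster 2, 8729 in cluster 8, 8539 in cluster 10 and 8303 in cluster 16, a cluster of 31 cells led by Cd209f and Vsig4 that expresses Lyve1 and Cd163. Tmsb10 was 1080, 941 and 1541 CPM in clusters 2, 8 and 10 and 176 CPM (exact Poisson 95% interval 126 to 240) in cluster 16. Tmsb10 thus varied among macrophage clusters far more than Tmsb4x.

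Neutrophils were compared between MI day 3 and IR day 1 alone, since too few were found in other groups. Ptma was 1253, 771, 876, 793 and 969 CPM on the MI plates. At IR day 1 its lowest plate was 0 (8 cells, where 3 counts would be 207 CPM), its median 366 and its highest 561 CPM over 9 plates. All MI plates lay above all IR day 1 plates (log2 1.42 ± 0.37, adjusted p = 0.0115, with 16.8% of the genes tested called). The call was lost with no low count filter (1.35, adjusted p = 0.0786), with at least 10 cells a plate (1.34, 0.109) and with at least 2000 UMIs a cell (1.13, 0.114). Fibroblast markers summed to 2829 to 6085 CPM in neutrophils at MI (median 3794) and 107 to 2039 at IR day 1 (median 225). Without cells holding over 1% of other classes' markers, Ptma was at log2 1.62 (adjusted p = 0.00476), and the part of fibroblast RNA in what remains was not tested. Tmsb4x was 7515, 9129, 7744, 9195 and 9687 CPM at MI and 4212 to 11200.6 CPM at IR day 1 (median 6357), which overlapped and did not pass (log2 0.24, adjusted p = 0.514). Tmsb10 was too low to be tested, at 80.7 to 576 CPM at MI and 0 to 280.5 CPM at IR day 1.

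**Figure D4:**
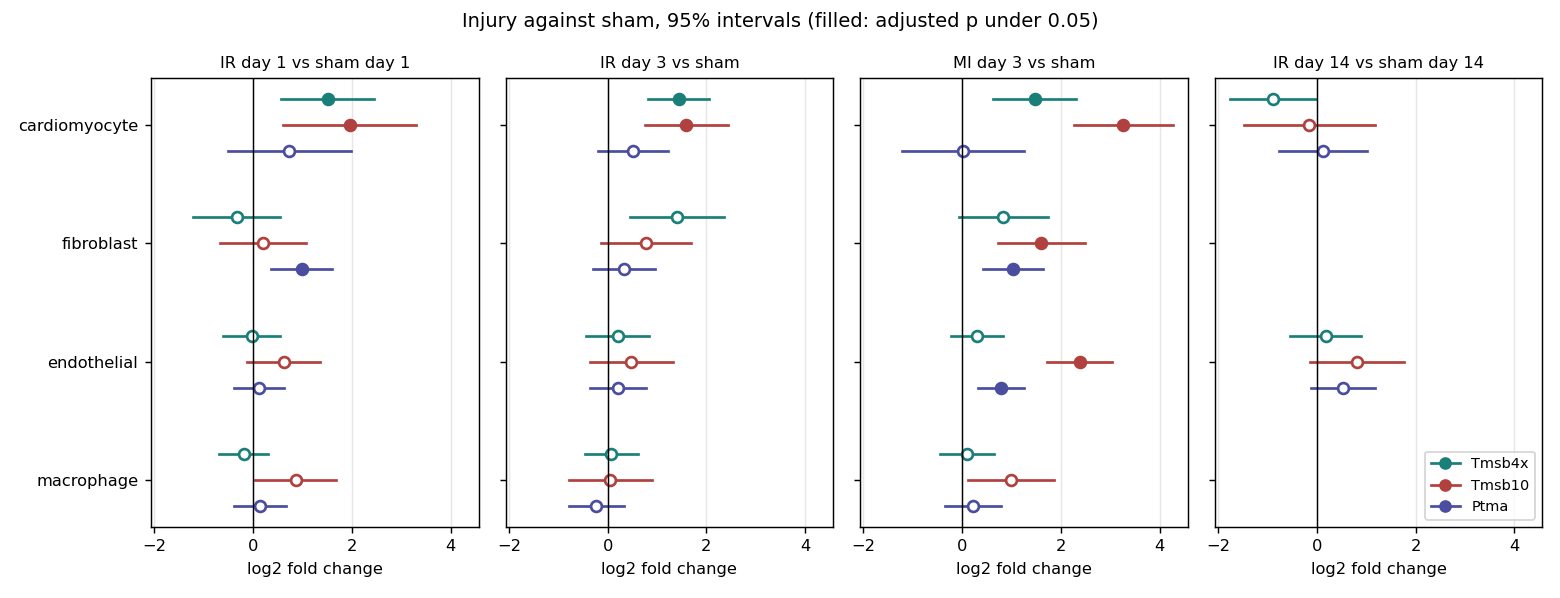
Log2 fold change of each gene with its 95% interval (edgeR) in each comparison of an injury group with sham, by cell class. Filled points passed at an adjusted p of 0.05 over all genes of the class. Tmsb10 at MI day 3 against sham was called at log2 3.26 in cardiomyocytes, 2.38 in endothelial cells and 1.60 in fibroblasts, and Tmsb4x in the same comparison at log2 1.47 in cardiomyocytes.

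A call in 1 class and none in another does not show that the classes differ, so the difference was tested where there were enough plates. For each member, pair of classes and comparison with at least 3 plates on each side, the within-plate difference of log2(CPM + 10) between the classes was compared between groups by an exact permutation test. Of 66 such tests, 7 had an unadjusted p under 0.05 and 0 passed adjustment. The smallest p was for Ptma in macrophages against neutrophils between MI day 3 and IR day 1 (exact permutation test, p = 0.003996, adjusted p = 0.1746). The smallest p such a test can give ran from 0.000999 to 0.1, and was above 0.05 in 15 of the 66. None included the cardiomyocytes of MI, with 2 plates, so their calls were not tested against another class. No call was thus shown to be particular to a class, and a difference between classes is not excluded.

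Several genes that share the actin pool with the beta-thymosins rose in the same cardiomyocyte comparisons. Of 15 tested genes for actin monomer binding and turnover, 6 rose and 1 fell at IR day 1 (median log2 1.11, against -0.56 over all genes tested), 5 rose and 0 fell at IR day 3 against sham (0.60, against -0.03), and 7 rose and 1 fell at MI day 3 (1.02, against -0.08). Of all genes tested, 11.6%, 6.2% and 34.1% were called in these comparisons. Cfl1 (cofilin 1, which severs filaments) was 983 ± 622 CPM at IR day 1 (n = 3) and 71.7 ± 12 at sham day 1 (n = 4, log2 3.06 ± 0.47, adjusted p = 3.25e-07). Actb (beta actin) was 1774 ± 334 and 166 ± 73.3 CPM in the same groups (log2 2.85, adjusted p = 7.02e-07). At IR day 3 against sham, Cfl1 was at log2 2.15 (adjusted p = 3.67e-08) and Lcp1, a filament-bundling protein known mainly from white blood cells, at 3.75 (adjusted p = 4.8e-08). At MI day 3, Cfl2, the muscle cofilin, had the smallest adjusted p of the lists (1817 ± 297 CPM, n = 2, against 158 ± 69, n = 9, log2 2.84, adjusted p = 1.82e-10). Gsn (gelsolin, which caps and cuts filaments) was the gene that fell at MI day 3 (log2 -2.51, adjusted p = 0.00204). Of 10 tested genes for actin nucleation, 2, 4 and 4 rose in the 3 comparisons and 0 fell. From IR day 3 to IR day 14, where 3.72% of all genes were called, 5 of the 15 and 2 of the 10 fell and 0 rose, Arpc5 of the Arp2/3 complex among them (log2 -3.07, adjusted p = 1.14e-05). Macrophage and fibroblast markers moved with the same groups, as given above, and their part in these counts was not tested.

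Of 15 genes tied to prothymosin alpha and tested in cardiomyocytes, 2 rose and 1 fell at IR day 1 (11.6% of all genes called), 1 rose at IR day 3 (6.2% called) and 1 at MI day 3 (34.1% called). The gene that rose at each was Hmox1, the heme oxygenase controlled by Nrf2, at log2 3.79 (adjusted p = 0.000795), 3.70 (adjusted p = 4.12e-06) and 4.58 (adjusted p = 1.33e-06). Hmox1 is also among the leading genes of macrophage cluster 2, and was 1467 ± 782 CPM at IR day 1 (n = 9), 949 ± 535 at IR day 3 (n = 6) and 3111 ± 724 at MI day 3 (n = 5) in macrophages, whose markers had higher sums in the cardiomyocytes of the same groups, as given above. The part of macrophage RNA in its rise was not tested. Ptms (parathymosin, the relative of prothymosin alpha) was 649 ± 75.2 CPM at MI day 3 (n = 2) against 91.8 ± 89.0 in sham (n = 9, log2 2.14, adjusted p = 1.38e-05), where Ptma was at 0.015, and it was singled out after its values were seen.

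In fibroblasts, 7 of 13 genes tied to prothymosin alpha rose in each comparison where Ptma did, in which 19.9% of all genes were called at IR day 1 and 17.1% at MI day 3. At IR day 1, 1 of them fell (median log2 2.05, against 0.20 over all genes), and at MI day 3, 0 fell (1.72, against 0.28). The nucleolar proteins Ncl (nucleolin) and Npm1 (nucleophosmin) were at log2 2.75 (adjusted p = 8.71e-05) and 3.22 (adjusted p = 0.000129) at IR day 1, and the histone chaperone Set was at 2.13 (adjusted p = 0.000573). At MI day 3, Npm1 was 1589 ± 225 CPM (n = 5) against 261 ± 70.5 in sham (n = 3, log2 2.65, adjusted p = 0.000507). Gsn fell from 27817.6 ± 6775 CPM in sham fibroblasts to 329 ± 149 at MI day 3 (log2 -6.23, adjusted p = 2.32e-07), and Ace, the enzyme that breaks down the peptide Ac-SDKP derived from thymosin beta 4, fell as well (log2 -2.70, adjusted p = 8.72e-05). Of the 7 tested genes for thymosin partners and processing, Ace among them, 1 rose and 1 fell at MI day 3, with 17.1% of all genes called. Of 14 actin monomer genes, 4 rose and 1 fell at either time, against the same 19.9% and 17.1%, Cfl1 among those that rose at MI (log2 1.92, adjusted p = 0.000464). The clusters, the depth and the cardiomyocyte markers of fibroblasts differed between these groups, as given above. RLE scaling also moved the median gene and the percent of higher calls, and the part of all these in the counts was not tested.

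In endothelial cells at MI day 3, 7 of 14 actin monomer genes rose and 2 fell (median log2 0.88, against 0.06 over all genes), 5 of 9 nucleation genes rose and 0 fell, and 8 of 13 prothymosin genes rose and 2 fell (1.12). Of all genes tested, 35.4% were called in this comparison. Capg (a filament-capping protein) was 284 ± 69.5 CPM (n = 5) against 25.6 ± 16.8 in sham (n = 8, log2 3.35, adjusted p = 2.36e-08), and Pfn1 (profilin 1, which competes with beta-thymosins for G-actin) was 1184 ± 241 against 214 ± 88.0 CPM (log2 2.35, adjusted p = 4.66e-08). Hmox1 was at log2 4.02 (adjusted p = 9.99e-07). Cardiomyocyte markers (40.6 to 275 CPM at MI against 10450.2 to 33527.3 in sham), depth (a median of 16726 UMIs against 3061 at sham day 1) and the mix of clusters moved with this comparison, and their part in these counts was not tested. In macrophages from IR day 1 to IR day 3, 0 rose and 3 fell of 14 monomer genes, and 0 rose and 3 fell of 14 nucleation genes (medians -0.11 and -0.15, against 0.05). With 26.4% of all genes called, these counts were no larger a share than that of all genes. Among them Pfn1 fell from 2493 ± 558 CPM (n = 9) to 995 ± 458 (n = 6, log2 -1.25, adjusted p = 0.000738), with Vasp (log2 -1.45, adjusted p = 0.000442) and Coro1a (log2 -1.07, adjusted p = 0.000645), which act at filament ends and on the Arp2/3 complex. In neutrophils, Vasp and Fmnl1 fell at MI day 3 against IR day 1 (log2 -0.89 and -1.20), of 8 nucleation genes tested, with 16.8% of all genes called. Of 114 tests of proposed regulators in 25 comparisons, 5 gave a call (4.39%, against 10.8% over all genes), and those 5 are named here after their values were seen. Mkl1, a coactivator of serum response factor, rose in macrophages at IR day 3 against sham (54.4 ± 29.8 CPM, n = 6, against 5.08 ± 8.80, n = 3, log2 3.62, adjusted p = 0.0312). Srf itself fell in macrophages from IR day 1 to IR day 3 (log2 -1.05, adjusted p = 0.00988), and in fibroblasts Myc fell between the same days (log2 -1.94, adjusted p = 0.00918) and Zeb1 at MI day 3 against sham (log2 -1.51, adjusted p = 0.0228). Zeb2, a repressor that binds DNA through zinc fingers, was too low to be tested in cardiomyocytes, at 49.6 ± 7.05 CPM at IR day 1 (n = 3), 57.9 ± 46.1 at MI day 3 (n = 2) and 11.9 ± 9.14 at sham day 1 (n = 4). In macrophages Zeb2 fell from 536 ± 103 CPM in sham (n = 3) to 268 ± 17.8 at IR day 3 (n = 6, log2 -0.96, adjusted p = 0.0472).

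The genes most like each member were sought by Pearson's r of mean log2(CPM + 10) over 23 combinations of class and group, among 8668 genes. Combinations of 1 group share plates, so the values are a description. Nearest to Tmsb4x were Ptbp3 (r = 0.959), Gnai2 (0.948), Klf6 (0.948), Arpc5 (0.944) and H3f3b (0.935). Nearest to Tmsb10 were the intermediate filament gene Vim (0.945) and genes of the translation machinery, Rps16 (0.937) and Rps19 (0.934) among them. Nearest to Ptma were Acsl5 (0.955), Ano6 (0.950), Ywhab (0.948), Tagln2 (0.945) and Ifitm3 (0.941). Among the members, Tmsb10 and Ptma were more alike (0.872) than Tmsb4x and Ptma (0.763) or the related pair Tmsb4x and Tmsb10 (0.691). For Zeb2 the values were 0.615 with Tmsb4x, 0.672 with Tmsb10 and 0.578 with Ptma.

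Since both beta-thymosins moved together in cardiomyocytes, the promoters of the 3 genes were searched for 4 short motifs on both strands. The RefSeq table (GRCm38.p6) holds 5 promoters of the 3 genes, each from 250 bases before to 50 after a start, among 32851 in all. CACCT, read as AGGTG from the opposite strand, is the core that ZEB proteins are known to bind, and it was in 3 of the 5 and in 51.9% of all promoters. The longer CACCTG, in reverse CAGGTG, contains it and was in 1 of the 5 and in 20.2% of all. GGGCGG, the core of the GC box, was in 5 of 5 and in 35.7% of all. The promoters of Tmsb10 among the 5 overlap in part, and a GGGCGG in an overlap was counted again, so the 5 are not independent. A form of the CArG box, the serum response element, was in none of the 5 and in 0.0639% of all. The stretches with CACCT, in capitals, are given on the gene's strand with their positions, since Zeb2 was a gene of interest in the study.
Tmsb10 at chr6:72958353-72958382 (minus strand): cgagagtgggagCACCTggagcgcgagctc
Tmsb10 at chr6:72958912-72958941 (minus strand): agtcctagctccCACCTccgcccttagaca
Tmsb4x at chrX:167209199-167209228 (minus strand): tacgagtgacatCACCTcatttgcatagaa
In Tmsb10 they lay 138 and 181 bases before different annotated starts, and in Tmsb4x 2 bases after the start. A match of letters is a description and not a binding site.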

How the data were processed

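Single cells were measured by SORT-seq, in which sorted cells are lysed in 384-well plates and poly(A) RNA is barcoded per cell with UMIs. The authors mapped reads to GRCm38/mm10 with BWA (version not given in the sources used here) and deposited 1 table per plate, 36 in all, each with the UMI count of every gene in every well. All 174110208 values were whole. The highest was 4096, the number of sequences a UMI of 6 bases allows. Mitochondrial and spike-in rows were left out of library sizes.

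Groups came from the sample labels, and each plate was 1 replicate. The 3 genes, the gene lists and the markers were chosen with earlier results of these data known. Wells of at least 1000 nuclear UMIs were clustered without the 3 genes (scanpy 1.11.5, leidenalg 0.10.2, 2000 variable genes, 30 components, 15 neighbours, resolution 1), which gave 19 clusters. A class name needed 3 markers raised at least 2-fold, and no doublet caller was run, so the markers of other classes are given instead. UMIs were summed per plate and class (at least 5 cells) and tested in R 4.3.3 with edgeR 4.0.16 (filterByExpr, TMM, quasi-likelihood test over all groups of a class, both sham days weighted equally for day 3, Benjamini-Hochberg over all genes of the comparison, threshold 0.05). DESeq2 1.42.0 was an alternative. Levels of whole plates (at least 10 cells) and of neighbouring classes were compared by exact permutation and sign-flip tests of log2(CPM + 10) with scipy 1.17.1. Shares at 1000 UMIs were expected shares from the hypergeometric distribution, and these, the contributions and cluster levels left out sham day 14 replicate 2.

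On data simulated from the macrophage libraries of MI and IR day 3 (7979 genes), 90% of 4-fold and 63% of 2-fold changes were recovered. The changed genes were drawn from those above a minimum expected count. Other classes, with other depths and plate counts, were not simulated. Same-numbered plates did not deviate together (correlations from -0.159 to 0.243), so replicate numbers were not used as pairs. Genes named besides the 3 were those of the lists with the smallest adjusted p, at most 4 per comparison, the genes that lead a cluster, and the 5 most alike in level; a few others, counted or singled out, were chosen after their values were seen.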

Additional observations from a re-analysis of the deposited data

Results flagged for a closer look

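Over groups of 4 to 10 plates, 2 of 45 sets of values held a plate far from the others, where about 1 in 20 is expected by chance. Ptma in cardiomyocytes of IR day 3 was 483.2 CPM on replicate 3, a plate with 5 such cells and 6209 UMIs, and 0 to 137.5 CPM on the other plates. Ptma in macrophages of IR day 3 was 1830 CPM on replicate 5 and 864.2 to 1121 CPM on the other plates, and the day 1 to day 3 comparison with and without that plate is given above.

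Wells with at least 100 but under 1000 UMIs, which no comparison above uses, held Tmsb4x and Ptma above every sham plate on each plate of IR day 1, IR day 3 and MI day 3, and Tmsb10 on each plate of MI day 3. The lowest plate was at 1455 CPM of Tmsb4x at IR day 1, 1300 at IR day 3 and 3541 at MI day 3, where the highest sham plate was at 1179 CPM. For Tmsb10 the lowest MI plate was at 737.8 CPM and the highest sham plate at 130.1 CPM, while IR day 1 and IR day 3 reached down to 59.8 and 57.6 CPM. For Ptma the lowest plates were at 458.3 CPM at IR day 1, 331.6 at IR day 3 and 1097 at MI day 3, and the highest sham plate was at 297.2 CPM. At IR day 14, Tmsb4x (232 to 634 CPM) and Tmsb10 (46.4 to 69.7) lay in the sham range, and 1 of 3 plates was above it in Ptma (305 CPM). These wells carry no class name, so the cell types behind them are unknown.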

How the results depend on the processing

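Of the 18 calls, Tmsb10 at MI day 3 against sham kept its side of the threshold in every setting and plate omission run in endothelial cells and in cardiomyocytes, and each other call was lost in at least 1. No called value changed sign in any setting. Over the 26 comparisons, 12636 calls over all genes became 14780 with DESeq2, 12931 with RLE scaling, 12823 without Rn45s, 12916 with UMI collision correction, 13061 with copied wells kept, 16008 with no low count filter and 11684 with 2000 UMIs a cell. Cells without other classes' markers gave 11006. The values that changed are log2 differences below, and the cause was not tested. 

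With no low count filter, calls were lost in cardiomyocytes IR day 1 against sham day 1 (Tmsb4x 1.04, Tmsb10 1.47), MI day 3 against sham (Tmsb4x 1.23), MI day 3 against IR day 3 (Tmsb10 1.39), in neutrophils MI day 3 against IR day 1 (Ptma 1.34) and results came to pass in fibroblasts IR day 3 against sham (Tmsb4x 1.49), MI day 3 against sham (Tmsb4x 1.14), MI day 3 against IR day 3 (Tmsb10 1.02), in macrophages MI day 3 against sham (Tmsb10 1.36), MI day 3 against IR day 3 (Tmsb10 1.11) and the sign turned in results that did not pass in cardiomyocytes IR day 14 against sham day 14 (Tmsb10 0.080), MI day 3 against sham (Ptma -0.23), MI day 3 against IR day 3 (Tmsb4x -0.22), IR day 3 against IR day 1 (Tmsb4x 0.34, Ptma 0.19). With wells of at least 2000 UMIs, calls were lost in cardiomyocytes IR day 1 against sham day 1 (Tmsb4x 1.67, Tmsb10 1.87), in endothelial cells MI day 3 against IR day 3 (Tmsb10 1.85), in macrophages IR day 3 against IR day 1 (Tmsb10 -0.50), in neutrophils MI day 3 against IR day 1 (Ptma 1.12), in the class order neutrophils over endothelial cells (Tmsb4x 1.02) and results came to pass in fibroblasts IR day 3 against sham (Tmsb4x 1.71), MI day 3 against IR day 3 (Ptma 0.97), IR day 3 against IR day 1 (Ptma -0.92), in the class order endothelial cells over fibroblasts (Ptma 0.40) and the sign turned in results that did not pass in cardiomyocytes IR day 14 against sham day 14 (Ptma -0.25), MI day 3 against sham (Ptma -0.15), MI day 3 against IR day 3 (Tmsb4x -0.054), in endothelial cells IR day 1 against sham day 1 (Tmsb4x 0.050), IR day 3 against IR day 1 (Ptma 0.17), IR day 14 against IR day 3 (Ptma -0.047), in macrophages MI day 3 against IR day 3 (Tmsb4x -0.068), in whole plates IR day 14 against sham day 14 (Tmsb4x -0.29, Ptma -0.12). With at least 10 cells per plate, calls were lost in cardiomyocytes IR day 1 against sham day 1 (Tmsb4x 1.58, Tmsb10 2.05), in fibroblasts IR day 3 against IR day 1 (Tmsb4x 1.33), in macrophages IR day 3 against IR day 1 (Tmsb10 -0.61), in neutrophils MI day 3 against IR day 1 (Ptma 1.34), in the class order neutrophils over endothelial cells (Tmsb4x 0.62), fibroblasts over cardiomyocytes (Tmsb4x 2.32), endothelial cells over neutrophils (Tmsb10 1.75), macrophages over neutrophils (Ptma 1.23) and results came to pass in fibroblasts MI day 3 against IR day 3 (Ptma 1.10), in the class order macrophages over fibroblasts (Tmsb10 -0.56), endothelial cells over fibroblasts (Ptma 0.51) and the sign turned in results that did not pass in cardiomyocytes IR day 3 against IR day 1 (Tmsb4x 0.048), in endothelial cells IR day 1 against sham day 1 (Tmsb4x 0.26), IR day 14 against IR day 3 (Ptma -0.047), in neutrophils MI day 3 against IR day 1 (Tmsb4x -0.098). With day 1 sham alone, calls were lost in cardiomyocytes IR day 3 against sham (Tmsb10 1.18), in endothelial cells MI day 3 against sham (Ptma 0.67). With cells with other markers left out, calls were lost in endothelial cells MI day 3 against sham (Ptma 0.60), MI day 3 against IR day 3 (Tmsb10 0.92), in fibroblasts MI day 3 against sham (Tmsb10 1.39) and results came to pass in fibroblasts MI day 3 against IR day 3 (Ptma 0.88), IR day 3 against IR day 1 (Ptma -0.79), in macrophages MI day 3 against IR day 3 (Tmsb10 1.02) and the sign turned in results that did not pass in cardiomyocytes MI day 3 against sham (Ptma -0.15), MI day 3 against IR day 3 (Tmsb4x -0.13), in endothelial cells IR day 1 against sham day 1 (Ptma -0.023), MI day 3 against IR day 3 (Tmsb4x -0.50, Ptma -0.15), IR day 3 against IR day 1 (Tmsb10 0.50, Ptma 0.75), IR day 14 against IR day 3 (Ptma -0.25), in fibroblasts IR day 1 against sham day 1 (Tmsb10 -0.040), IR day 14 against IR day 3 (Tmsb10 0.018, Ptma 0.026), in macrophages IR day 3 against sham (Tmsb10 -0.0060). With copied wells kept, results came to pass in macrophages MI day 3 against IR day 3 (Tmsb10 0.98) and the sign turned in results that did not pass in cardiomyocytes MI day 3 against sham (Ptma -0.13), MI day 3 against IR day 3 (Tmsb4x -0.15). With sham day 14 replicate 2 dropped, the sign turned in results that did not pass in cardiomyocytes MI day 3 against sham (Ptma -0.14), MI day 3 against IR day 3 (Tmsb4x -0.15). With RLE scaling, calls were lost in fibroblasts IR day 1 against sham day 1 (Ptma 0.80), MI day 3 against sham (Ptma 0.70) and the sign turned in results that did not pass in cardiomyocytes MI day 3 against IR day 3 (Tmsb4x -0.0098), in endothelial cells IR day 1 against sham day 1 (Tmsb4x 0.013), MI day 3 against IR day 3 (Tmsb4x -0.018), IR day 3 against IR day 1 (Ptma 0.019), in macrophages IR day 3 against sham (Tmsb10 -0.014), MI day 3 against sham (Tmsb4x -0.027), MI day 3 against IR day 3 (Tmsb4x -0.050). With DESeq2, results came to pass in fibroblasts MI day 3 against IR day 3 (Ptma 0.60), IR day 3 against IR day 1 (Ptma -0.70) and the sign turned in results that did not pass in endothelial cells IR day 1 against sham day 1 (Tmsb4x 0.017), MI day 3 against IR day 3 (Tmsb4x -0.023), IR day 3 against IR day 1 (Ptma 0.039), in macrophages IR day 3 against sham (Tmsb10 -0.030), MI day 3 against sham (Tmsb4x -0.028), MI day 3 against IR day 3 (Tmsb4x -0.051). With UMI collision correction, the sign turned in results that did not pass in endothelial cells IR day 1 against sham day 1 (Tmsb4x 0.0051). With cluster 13 left out, which was chosen after seeing the data, calls were lost in endothelial cells MI day 3 against IR day 3 (Tmsb10 1.59) and the sign turned in results that did not pass in endothelial cells MI day 3 against IR day 3 (Tmsb4x -0.26), IR day 3 against IR day 1 (Ptma 0.37), IR day 14 against IR day 3 (Ptma -0.088). With day 14 sham alone, calls were lost in fibroblasts MI day 3 against sham (Tmsb10 1.62) and the sign turned in results that did not pass in fibroblasts IR day 3 against sham (Tmsb4x -0.12), MI day 3 against sham (Tmsb4x -0.69). That control is 1 fibroblast plate, assumed to vary like those of the other groups, and the Tmsb10 value hardly moved. With sham day 14 replicates 3 and 4 left out, which was chosen after seeing the data, the sign turned in whole plates IR day 14 against sham day 14 (Tmsb4x -0.66, Ptma -0.029). Of these, Tmsb4x then passed.

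Leaving out 1 plate at a time, the results whose call or sign changed ranged as follows. In cardiomyocytes these were Tmsb4x IR day 1 against sham day 1 1.23 to 1.66, Tmsb10 IR day 1 against sham day 1 1.60 to 2.51, Ptma IR day 1 against sham day 1 -1.25 to 1.23, Tmsb10 IR day 3 against sham 1.40 to 1.85, Tmsb10 IR day 14 against sham day 14 -0.53 to 0.34, Ptma IR day 14 against sham day 14 -0.11 to 0.65, Ptma MI day 3 against sham -0.21 to 0.51, Tmsb4x MI day 3 against IR day 3 -0.31 to 0.33, Tmsb10 MI day 3 against IR day 3 1.35 to 1.93, Tmsb4x IR day 3 against IR day 1 -0.23 to 0.26, Ptma IR day 3 against IR day 1 -0.72 to 1.76. In endothelial cells these were Tmsb4x IR day 1 against sham day 1 -0.14 to 0.092, Ptma IR day 1 against sham day 1 -0.0093 to 0.26, Tmsb4x IR day 3 against sham -0.085 to 0.44, Tmsb10 IR day 3 against sham -0.53 to 0.82, Ptma IR day 3 against sham -0.11 to 0.45, Tmsb4x IR day 14 against sham day 14 -0.045 to 0.35, Tmsb4x MI day 3 against IR day 3 -0.19 to 0.38, Tmsb10 MI day 3 against IR day 3 1.60 to 2.91, Tmsb4x IR day 3 against IR day 1 -0.080 to 0.36, Ptma IR day 3 against IR day 1 -0.32 to 0.16, Tmsb4x IR day 14 against IR day 3 -0.31 to 0.21, Tmsb10 IR day 14 against IR day 3 -0.41 to 0.93, Ptma IR day 14 against IR day 3 -0.049 to 0.52. In fibroblasts these were Tmsb4x IR day 1 against sham day 1 -0.51 to 0.0084, Tmsb10 IR day 1 against sham day 1 -0.051 to 0.63, Ptma IR day 1 against sham day 1 0.91 to 1.13, Tmsb4x IR day 3 against sham 1.20 to 1.73, Tmsb10 MI day 3 against sham 1.34 to 2.02, Ptma MI day 3 against sham 0.96 to 1.18, Ptma MI day 3 against IR day 3 0.56 to 0.92, Ptma IR day 3 against IR day 1 -0.87 to -0.52. In macrophages these were Ptma IR day 1 against sham day 1 -0.062 to 0.45, Tmsb4x IR day 3 against sham -0.12 to 0.16, Tmsb10 IR day 3 against sham -0.26 to 0.76, Ptma IR day 3 against sham -0.54 to 0.030, Tmsb4x MI day 3 against IR day 3 -0.020 to 0.13, Tmsb10 MI day 3 against IR day 3 0.79 to 1.25, Tmsb10 IR day 3 against IR day 1 -1.16 to -0.68, Ptma IR day 3 against IR day 1 -0.61 to -0.34. In whole plates these were Tmsb4x IR day 14 against sham day 14 -0.35 to 0.94, Tmsb4x MI day 3 against IR day 3 -0.027 to 0.18.

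Replicate numbers shared between groups name plates and do not pair them, and a block on the number took the calls over all genes from 12636 to 6065. With the replicate number as a block, calls were lost in cardiomyocytes IR day 1 against sham day 1 (Tmsb10 1.89), IR day 3 against sham (Tmsb4x 1.08, Tmsb10 1.62), MI day 3 against IR day 3 (Tmsb10 0.96), IR day 14 against IR day 3 (Tmsb4x -1.84, Tmsb10 -2.65), in endothelial cells MI day 3 against IR day 3 (Tmsb10 1.53), in fibroblasts IR day 1 against sham day 1 (Ptma 0.78), MI day 3 against sham (Ptma 0.97), in macrophages IR day 3 against IR day 1 (Tmsb10 -0.83) and the sign turned in results that did not pass in cardiomyocytes IR day 14 against sham day 14 (Ptma -0.91), MI day 3 against sham (Ptma -0.72), IR day 3 against IR day 1 (Ptma 0.55), in endothelial cells IR day 1 against sham day 1 (Tmsb4x 0.15), IR day 14 against sham day 14 (Tmsb4x -0.17), MI day 3 against IR day 3 (Tmsb4x -0.056), IR day 3 against IR day 1 (Ptma 0.060), in macrophages MI day 3 against IR day 3 (Tmsb4x -0.027).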

Other observations

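Clusters without a class name also held the 3 genes, pooled over cells with exact Poisson 95% intervals for counting error. Cluster 6, of 184 cells with 171 from MI day 3, had a median of 1437 UMIs per cell, markers of several classes raised, and the cell cycle genes Rrm2 and Cdk1 among its leading genes. It was at 3353 CPM of Tmsb4x (3173 to 3541), 797 of Tmsb10 (711 to 892) and 958.5 of Ptma (863 to 1061). Cluster 7, with 2 cells from MI and the others spread over the remaining groups, was at 1033, 108 and 362 CPM. Its 47 cells of sham day 14, 40 of them from replicates 3 and 4, were at 55.2 CPM of Tmsb4x (25.2 to 105), 12.3 of Tmsb10 and 73.6 of Ptma, and its cells of sham day 1, IR day 1, IR day 3 and IR day 14 at 1418, 1399, 2809 and 994 CPM of Tmsb4x. Cluster 15, with 57 of 77 cells from IR day 1, was at 1093, 250 and 489.5 CPM. Mural cells, 15 in all, were at 2086 CPM of Tmsb4x (1862 to 2330), 578 of Tmsb10 and 1893 of Ptma (1680 to 2126), and gave no plate with enough cells for a test. Cluster 18, of 12 cells led by erythrocyte genes, held 14 UMIs of Tmsb4x, 1 of Tmsb10 and 0 of Ptma, for which the upper Poisson bound is 133 CPM.

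The 6-base UMI limits counts of abundant genes. The highest Tmsb4x count in a well was 1329, which corresponds to 1607 molecules when UMIs used by several molecules are allowed for.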
